A study of Mus musculus with 113 samples.

Results

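The genes of the proteasome, its activators and its inhibitor were followed through mouse preimplantation development and through the knockdown or editing of nuclear receptors. The set held every gene whose symbol began with Psma, Psmb, Psmc, Psmd, Psme or Psmf followed by a digit, which gave 46 of the 24006 genes measured. Psme1, which encodes the alpha subunit of the PA28 activator, was kept apart from the other 45 genes. The set comprised 7 alpha and 7 beta subunits of the core particle, and 6 ATPases, 3 other base subunits and 8 lid subunits of the regulatory cap, which together are called the 31 structural subunits here. It further held 3 inducible beta subunits of the immunoproteasome, 2 subunits used in testis or thymus, 3 chaperones of cap assembly, 5 activator genes including Psme1, and the inhibitor gene Psmf1. Psmc3ip entered by its symbol alone, since it encodes a partner of meiotic recombinases and is no part of the proteasome.

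The proteasome degrades proteins that carry ubiquitin chains. Its barrel-shaped core holds the peptidases on the inner face of the beta rings, the alpha rings gate the entrance, and the cap binds, unfolds and feeds the substrate with the energy of its ATPases. The PA28 and PA200 activators, encoded by Psme1, Psme2, Psme3 and Psme4, are other caps that open the gate without ATP. In early embryos the ubiquitin-proteasome system clears proteins inherited from the oocyte while the embryo takes over its own transcription.

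The study asked what the nuclear receptors Nr5a2, Rarg, Nr1h3 and Nr2c2 do in early embryos, and measured mRNA with Smart-seq2, a full-length method for small inputs, in 92 of its 113 samples. The embryos were wild type by label and hybrids of C57BL/6J and PWK/PhJ by the study's sample table, whereas its methods name C57BL/6N females. In 32 libraries, each a pool of embryos, zygotes had received siRNA. A negative control siRNA (NC) at 20 µM stood beside the quadruple knockdown (4KD) at the 4-cell (4C) and 8-cell (8C) stages. NC at 15 µM stood beside 4 triple knockdowns (3KD) at 8C, each of which spared 1 receptor, and NC at 5 µM stood beside the 4 single knockdowns (KD) at 8C. Each receptor siRNA in those sets was injected at 5 µM. At the 2-cell stage (2C) both NC and Nr5a2 siRNA were labelled 20 µM. Every pool group had 2 libraries. The other 60 libraries were single embryos injected with base editor (BE) mRNA alone, with sgRNA against Nr5a2 alone, or with both, at 100 ng/µl each, with 8, 8 and 14 embryos at 2C and the same numbers at 8C. BE alone and sgRNA alone served as controls, 16 embryos at each stage. The labels do not say that the pools of a group came from separate collections, so p-values over them measure only the spread between these libraries.

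Values were FPKM, fragments scaled by transcript length and library size, so that levels could be set side by side between genes, while the depth in reads was unknown. The summed FPKM of a library lay between 83391.8 and 556462, and 5472 to 11921 genes reached an FPKM of 1, with both minima in the 8C BE + sgRNA embryo 8. Column names gave the 4-cell stage for 3 single-embryo libraries labelled 2C or 8C, and they were kept as labelled. The 2-cell markers, such as Zscan4d and Zfp352, summed to a median of 884 FPKM in 2C control embryos (14.5 to 2108) and 9.51 in 8C control embryos (1.35 to 124). The labels and these markers did not go together in every library. The 2C sgRNA embryo 8, 1 of the 3 with a 4-cell column name, held the 14.5 FPKM and the lowest sum of oocyte-deposited genes at 2C (63.7 FPKM), which lay within the 8C control range of 18.5 to 154. At 8C the 2-cell markers summed to 432 FPKM in the BE + sgRNA embryo 11 and to 437 in the Nr2c2 KD library 1. In all, 6 of the 60 single embryos, 2 labelled 2C and 4 labelled 8C, lay nearer the other stage's control median on a log scale, and results were also computed without them, an alternative chosen after seeing the data. Differences are log2 fold changes of FPKM + 1 with their standard error, a scale that understates the change of low genes. They were tested with limma, and a gene was called at a Benjamini-Hochberg adjusted p under 0.05 over all genes tested. The stricter limits used beside it were a log2 change of 2 or more in either direction with an adjusted p below 0.01. In whole embryos, fewer cells with a transcript and less of it per cell cannot be told apart.

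Promoters of Psme1 and of the peptidase gene Psmb6 are printed because the first belongs to the member that stood apart under Nr5a2 siRNA, and the second stands for the structural subunits that rose together between 2C and 8C. Both run from 250 bases before to 30 bases after the start site in RefSeq (GRCm38.p6), Psme1 at chr14:55578244-55578523 on the plus strand and Psmb6 at chr11:70525107-70525386 on the plus strand. Capitals mark an interferon-stimulated response element core in Psme1, a motif searched for after the sequence was seen, and an antioxidant response element core in Psmb6.
Psme1: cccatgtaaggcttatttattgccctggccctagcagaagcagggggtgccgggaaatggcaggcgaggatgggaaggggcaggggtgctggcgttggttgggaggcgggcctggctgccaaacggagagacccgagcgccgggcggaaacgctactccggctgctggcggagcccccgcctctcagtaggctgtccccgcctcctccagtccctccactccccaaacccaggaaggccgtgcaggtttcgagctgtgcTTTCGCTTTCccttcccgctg
Psmb6: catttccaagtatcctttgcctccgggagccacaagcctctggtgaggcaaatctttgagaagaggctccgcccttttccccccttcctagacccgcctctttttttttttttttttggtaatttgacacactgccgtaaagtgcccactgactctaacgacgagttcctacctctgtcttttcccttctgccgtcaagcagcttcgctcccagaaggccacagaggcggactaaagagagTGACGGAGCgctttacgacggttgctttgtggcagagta

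The motifs were searched on both strands from 250 bases before to 50 bases after the start site, in the 39 members matched to RefSeq and in 32544 promoters in all. The NR5A binding motif CAAGGTCA lay in 2 members (5.13%), Psmb10 and Psmc3ip, against 1.53% of all promoters, and its letters were not in the Psme1 window. The antioxidant response element core TGACNNNGC lay in 6 members (15.4%) against 12.4%, and the interferon-stimulated response element core (GAAA, any 2 bases, GAAA) in 4 members (10.3%) against 3.45%. CCAAT lay in 15 members (38.5%) against 37.4%, and the GC box GGGCGG in 22 members (56.4%) against 35.9%. A match describes the letters only.

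Proteasome transcripts took a larger share of the transcriptome at 8C than at 2C. The 46 genes made up 0.704% ± 0.274 (SD, n = 16) of the summed FPKM in 2C control embryos, with a range from 0.315% to 1.21%, and 1.83% ± 0.359 (SD, n = 16) in 8C control embryos, with a range from 1.14% to 2.24%. The ranges met only between 1.14% and 1.21%. The BE + sgRNA embryos had shares of 0.754% ± 0.247 at 2C and 1.67% ± 0.321 at 8C (SD, n = 14 each). The structural subunits alone made up 0.725% and 0.880% in the NC pools at 2C, 2.21% and 2.29% at 4C, and 2.01% to 3.01% at 8C. The pools of 2C and 4C belong to separate experiments and were not tested against each other.

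All 31 structural subunits rose between 2C and 8C in single control embryos, with log2 fold changes from 1.12 to 3.65 and a median of 2.22, and 21 of them passed the stricter limits. Over all genes tested in this comparison, 28.9% were called higher and 43.6% lower, 8.24% were higher past the stricter limits, and the median log2 fold change was -0.31. Of the 43 members tested besides Psme1, 33 were called higher and 6 lower, with a median of 1.95. After median-ratio scaling of the libraries, which moved the median of all genes by -0.18, 32 were called higher and 6 lower and the median was 1.65. Without the 6 embryos nearer the other stage, 33 were called higher and 6 lower, with a median of 2.16. Column names mark BE and BE + sgRNA libraries as eBE or BE4, and sgRNA libraries were placed beside them by their library numbers. Within those marked eBE, a split chosen after seeing the data, 33 were called higher and 5 lower. Psma8 and Psmb11, the testis and thymus subunit genes, did not reach a mean FPKM of 1 in any group of single embryos and were not tested there. Psma8 was the least abundant member at 2C, at 0 FPKM in the median embryo and 1.33 in the highest.

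The alpha ring genes, which form the gate of the core, were called higher in 7 of 7 cases, with a median log2 fold change of 1.95. Psma6 was the most abundant member at both stages. Its FPKM ran from 15.0 over a median of 126 to 363 in 2C embryos and from 276 over a median of 1008 to 1268 in 8C embryos, a log2 fold change of 2.86 ± 0.360 (SE, limma adjusted p = 3.42e-10). Of the 16 embryos at 8C, 13 lay above the highest 2C embryo. Psma3 had the smallest change of the structural subunits, 1.12 ± 0.386, with a mean of 8.84 FPKM at 2C and 20.8 at 8C. Its call was lost with the sgRNA embryos alone as controls (limma adjusted p = 0.165).

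The beta ring genes were called higher in 7 of 7 cases as well, with a median log2 fold change of 2.54. Psmb5, Psmb6 and Psmb7 encode the chymotrypsin-like, caspase-like and trypsin-like peptidases of the standard core. Psmb6 ran from 4.44 over a median of 31.1 to 155 FPKM at 2C and from 131 over a median of 353 to 506 FPKM at 8C, a log2 fold change of 3.29 ± 0.366, and 14 of 16 embryos at 8C lay above every 2C embryo. Psmb5 ran from 4.07 over 24.4 to 221 FPKM at 2C and from 95.2 over 262 to 386 FPKM at 8C (2.91 ± 0.469), with 11 of 16 embryos above. Psmb7 ran from 10.7 over 43.7 to 148 FPKM at 2C and from 59.5 over 332 to 675 FPKM at 8C (2.54 ± 0.384), with 13 of 16 embryos above. The peptidase genes thus overlapped between the stages in a few embryos each. Psmb4, a beta subunit without peptidase activity, had a mean of 98.7 ± 78.7 FPKM at 2C and 483 ± 186 at 8C (SD, n = 16 each), a log2 fold change of 2.61 ± 0.349.

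Of the cap genes, the ATPases held 2 of the 5 largest changes. They were called higher in 6 of 6 cases, with a median log2 fold change of 2.33. Psmc5 ran from 0.834 over a median of 22 to 94.4 FPKM at 2C and from 90.9 over a median of 274 to 347 FPKM at 8C, a log2 fold change of 3.65 ± 0.394 (limma adjusted p = 2.81e-12). Psmc4 ran from 1.32 over 15.9 to 57.4 FPKM at 2C and from 43.1 over 187 to 272 FPKM at 8C, a log2 fold change of 3.21 ± 0.324 (limma adjusted p = 3.06e-13). In both genes 15 of 16 embryos at 8C exceeded the highest 2C embryo.

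The base subunits without ATPase activity, Psmd1, Psmd2 and Psmd4, and the 8 lid genes were all called higher, with median log2 fold changes of 2.22 and 2.02. Psmd13, a lid subunit, had the largest change among them, from a mean of 14.2 ± 13 to 95.6 ± 39.9 FPKM (SD, n = 16 each, log2 fold change 3.18 ± 0.409), and 14 of 16 embryos at 8C lay above the 2C embryos. Each of the 31 structural subunits had a lower coefficient of variation between embryos at 8C, where the median over the genes was 41.7%, than at 2C, where it was 73.2%. The means of all 31 were also higher at 8C. Genes outside the set were not compared, so the lower coefficient is not shown to be particular to these subunits.

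**Figure D1:**
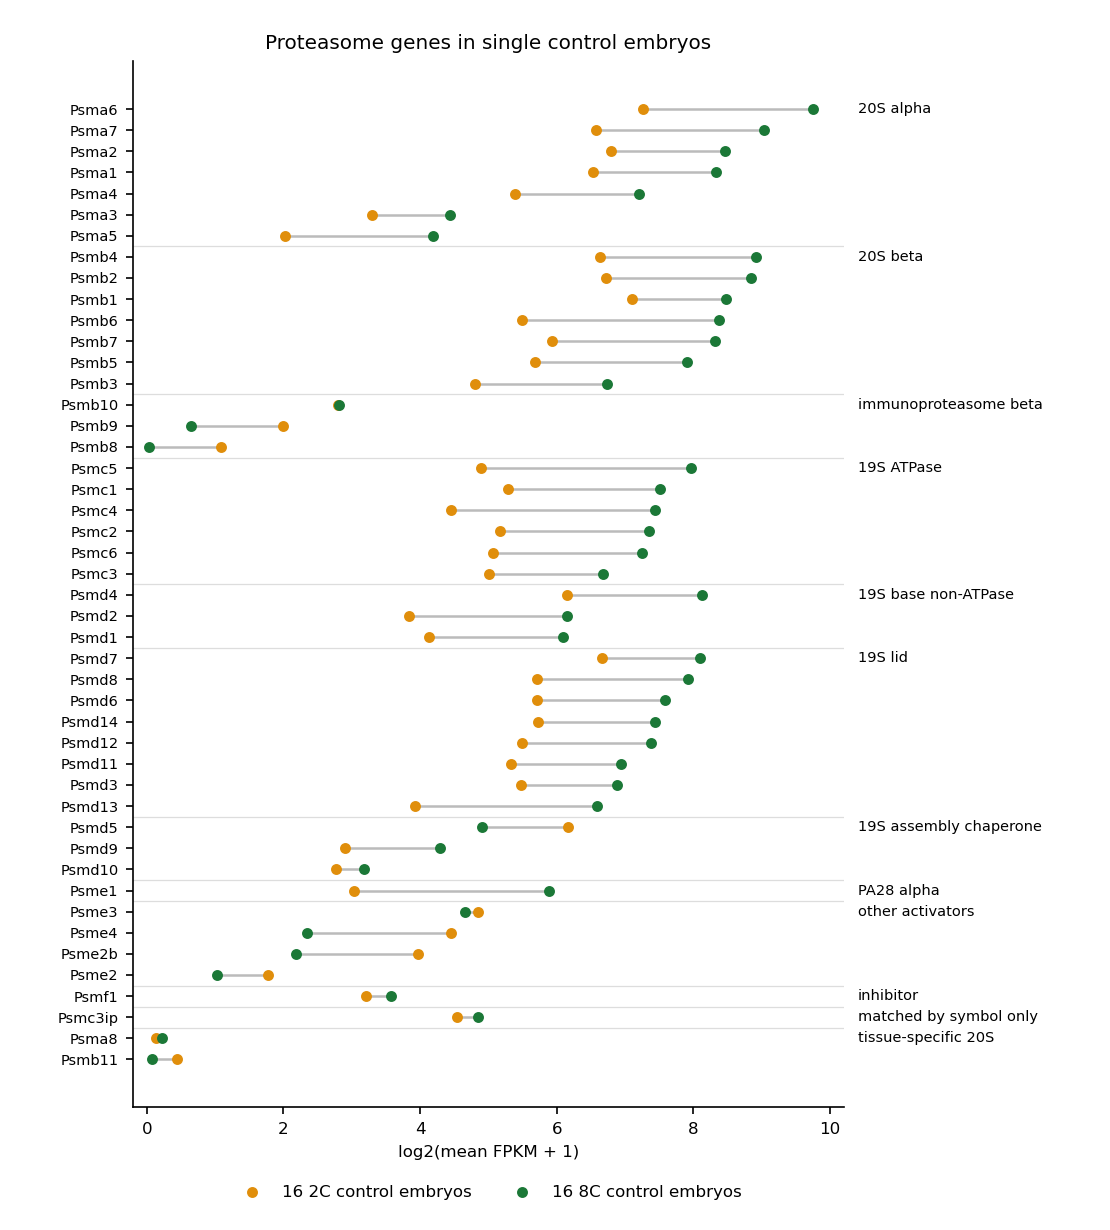
Level of each of the 46 genes in 16 control embryos at 2C (orange) and 16 at 8C (green), as log2(mean FPKM + 1), grouped by the role of the gene product, with a line joining the stages of each gene. Each of the 31 structural subunits lies higher at 8C, while Psme4, Psme2b, Psme2, Psmd5, Psmb8 and Psmb9, which were called lower, lie lower. So do Psme3, which was not called, and Psmb11, which was not tested.

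The remaining members did not share one direction, and those without a rule to name them were picked after their values were seen. Among the chaperones of cap assembly, Psmd9 was called higher (6.45 to 18.6 FPKM, log2 fold change 1.40 ± 0.267), Psmd5 was called lower (70.5 to 29.1 FPKM, -1.19 ± 0.379), and Psmd10 was not called (5.81 and 8.02 FPKM). The Psmd5 call was lost with the sgRNA embryos alone as controls (limma adjusted p = 0.0936). The inhibitor gene Psmf1 had means of 8.28 and 10.9 FPKM and was not called. Psmc3ip was called higher (22.3 to 27.9 FPKM, limma adjusted p = 0.0370), a call that was lost in 5 alternatives, with adjusted p up to 0.192.

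Of the activator genes other than Psme1, 3 of 4 were called lower, beside 43.6% of all genes. Psme4, which encodes PA200, ran from 6.17 over a median of 20.4 to 34.4 FPKM at 2C and from 2.35 over a median of 3.98 to 6.38 FPKM at 8C, a log2 fold change of -2.0 ± 0.196 (limma adjusted p = 1.10e-13). Of the 16 embryos at 8C, 15 lay below the lowest 2C embryo. Psme2 encodes the beta subunit that joins the Psme1 product in PA28, and Psme2b is the symbol of a near copy of it, so reads may have been split between the pair and both values are uncertain. Psme2b fell from a mean of 14.7 ± 10.6 to 3.54 ± 1.89 FPKM (SD, n = 16 each, log2 fold change -1.54 ± 0.362) and Psme2 from 2.43 ± 2.1 to 1.03 ± 1.23 FPKM (-0.75 ± 0.304). The Psme2 call was lost with either control group alone (limma adjusted p = 0.130 with BE and 0.123 with sgRNA). Psme3, whose product forms the nuclear PA28 ring, had means of 27.7 and 24.3 FPKM and was not called.

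Psme1 rose with the structural subunits. It ran from 0 over a median of 3.55 to 41.9 FPKM at 2C, with 1 embryo at 0, and from 15.4 over a median of 57.5 to 112 FPKM at 8C. The log2 fold change was 3.27 ± 0.421 (limma adjusted p = 6.69e-10), and 10 of 16 embryos at 8C exceeded every 2C embryo. Its rank by mean FPKM among the 46 genes moved from 37 to 30.

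The inducible peptidases Psmb8, Psmb9 and Psmb10 replace Psmb5, Psmb6 and Psmb7 in the immunoproteasome, which shapes peptides for antigen presentation. Psmb8 was at 0 in 8 of 16 embryos at 2C and in 15 of 16 at 8C, with maxima of 3.65 and 0.389 FPKM (log2 fold change -0.77 ± 0.215, limma adjusted p = 0.00135). Psmb9 was at 0 in 4 and 11 of 16 embryos, with maxima of 12.9 and 4.17 FPKM (-1.01 ± 0.310, limma adjusted p = 0.00327), and its call was lost with the BE embryos alone as controls (0.0541) and within the libraries marked eBE (0.188). Both genes were thus near their floor at 8C. Psmb10 ran from 0 over 4.98 to 20.2 FPKM at 2C and from 0.790 over 6.30 to 12.9 FPKM at 8C and was not called.

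The inducible peptidases made up 8.19% ± 6.48 of the summed FPKM of both peptidase sets in 2C control embryos and 0.974% ± 0.851 in 8C control embryos (SD, n = 16 each). The standard set rose from a mean of 154 to 886 FPKM while the inducible set stood at 10.1 and 6.62 FPKM. BE + sgRNA embryos had shares of 3.82% ± 3.22 and 1.49% ± 2.18 (SD, n = 14 each), the latter with a median of 0.805% and a highest embryo at 8.69%. In the pools the share was 0.639% and 3.78% in NC and 3.62% and 4.52% in Nr5a2 KD at 2C, and group means lay between 0.214% and 1.14% at 4C and 8C.

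The same stage difference was measured in the BE + sgRNA embryos. There 31 of the 43 members besides Psme1 were called higher and 5 lower, beside 25.7% and 38.7% of all genes, with a median log2 fold change of 1.43 beside -0.24 for all genes. Of the 31 structural subunits 30 were called, and Psma2 was not (log2 fold change 0.83, limma adjusted p = 0.0559). Psma7, an alpha ring gene, had the largest change (3.27 ± 0.381, 42.9 to 396 FPKM), followed by Psme1 (2.75 ± 0.450, 7.23 to 33.6 FPKM), Psmb6 (2.72 ± 0.391, 58.9 to 305 FPKM) and Psmc5 (2.70 ± 0.421, 40.7 to 229 FPKM). Psme4 again had the largest fall (-2.42 ± 0.209, 27.7 to 4.33 FPKM), and Psma6, the lid gene Psmd8 and the ATPase gene Psmc1 completed the 8 largest changes at 2.30, 2.30 and 2.16. The call on Psma3 was lost in 6 alternatives, with adjusted p up to 0.275. Without the 6 embryos nearer the other stage, 29 members besides Psme1 were called higher and 5 lower. For the difference between the stage effects in edited and control embryos, limma's interaction test called 0 members, beside 0.0385% of all genes. It had 4 members at an unadjusted p under 0.05, beside 9.68% of all genes. Its median over the members was -0.42 on the log2 scale beside -0.02 for all genes, and -0.27 after median-ratio scaling, which moved the median of all genes by 0.10. Without the 6 embryos nearer the other stage it was -0.65.

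Other genes of the pathway were counted from lists, beside 28.9% of all genes called higher and 43.6% called lower at 8C in control embryos. Of 11 further proteasome factors, 10 were called higher at 8C in control embryos, with a median log2 fold change of 2.08, among them the assembly factors Psmg2 (3.03), Psmg4 (2.64) and Pomp (2.56) and the deubiquitinase Usp14 (3.19). Of 16 genes of ubiquitin supply and shuttling, 8 were called higher and 2 lower (median 0.32). Rps27a, which encodes ubiquitin fused to a ribosomal protein, had 12.4 FPKM at 2C and 83.0 at 8C (log2 fold change 3.29). Of 6 regulators of proteasome genes, 4 were called lower and 0 higher (median -0.78). Nfe2l1, the factor that raises proteasome transcription when the proteasome is blocked, had 28.6 FPKM at 2C and 8.54 at 8C (log2 fold change -1.58). Of 8 antigen-processing genes tested, 3 were called lower, among them Irf1 (-3.92) and B2m (-2.07), and H2-D1 was called higher (0.79). In BE + sgRNA embryos the counts called were 10 higher of 11, 7 higher and 1 lower of 16, 3 lower of 6, and 4 lower of 8. Over all genes, 25.7% were called higher there and 38.7% lower.

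Between 4C and 8C limma called 0 members in the NC pools and 0 in the 4KD pools, where 0% of all genes were called. Besides Psme1, 2 and 3 members had an unadjusted p under 0.05, beside 7.41% and 7.67% of all genes. The median log2 fold change of the 44 members tested besides Psme1 was 0.15 in NC and 0.31 in 4KD pools. The smallest unadjusted p in NC pools were those of Psmb9 (0 and 3.03 FPKM at 4C and 8C, limma p = 0.0130), Psmd5 (68.6 and 37.4 FPKM, p = 0.0491) and Psmb3 (96.6 and 179 FPKM, p = 0.101). The corresponding genes in 4KD pools were Psma7 (445 and 933 FPKM, limma p = 0.0144), Psmc4 (86.9 and 169 FPKM, p = 0.0244) and Psmd8 (144 and 295 FPKM, p = 0.0318).

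Under knockdown, Psme1 was the only member called against NC. In the 11 comparisons of a knockdown with NC, limma called 0 of the other members, beside 0% to 2.75% of all genes. Between 0 and 6 of the other members per comparison had an unadjusted p under 0.05, beside 2.36% to 18.1% of all genes. The median log2 fold change of the other members lay between -0.33 and 0.07 at 4C and 8C and was 0.51 at 2C. Comparisons within an experiment share their NC libraries.

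Psme1 (chr14:56196960-56200366, plus strand, mm9) was lower than NC in all 5 groups that received Nr5a2 siRNA at 8C and was called in 3 of them, or in 4 with the replicate number as a block in the triple knockdowns. In the single knockdowns, the NC pools held 69.5 and 103 FPKM and the Nr5a2 KD pools 2.88 and 0 FPKM. The log2 fold change was -5.44 ± 0.605 (limma adjusted p = 0.00243), past the stricter limits, in a comparison where 2.39% of all genes were called lower and 0.669% were lower past those limits. Without NC library 2 the adjusted p was 0.0769. The pools without Nr5a2 siRNA overlapped NC or lay close to it, with 75.6 and 140 FPKM in Rarg KD, 139 and 66.1 FPKM in Nr1h3 KD, and 91.7 and 76.2 FPKM in Nr2c2 KD.

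The log2 fold changes of Psme1 in these knockdowns of Rarg, Nr1h3 and Nr2c2 were 0.28, 0.18 and -0.02, each ± 0.605, with 95% intervals from -1.05 to 1.60, from -1.15 to 1.5 and from -1.34 to 1.31. Each changed sign when 1 library was left out. Set directly against the 3 other knockdowns, Nr5a2 KD had a log2 fold change of -5.59 ± 0.494 (limma adjusted p = 0.000326), a comparison without any NC library, where 3.16% of all genes were called lower. It was called in all 15 alternatives, with adjusted p up to 0.0121.

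In the triple knockdowns, Psme1 was high only in the group that spared Nr5a2 and in NC. NC held 68.8 and 131 FPKM, and the 3KD that spared Nr5a2 held 68.9 and 104 FPKM (log2 fold change -0.17 ± 0.682, 95% interval -1.67 to 1.33). The 3KD sparing Rarg held 1.68 and 1.74 FPKM (-5.15 ± 0.682, limma adjusted p = 0.0341), beside 0.0565% of all genes called lower. Same-numbered libraries of the triple knockdowns deviated together, and a fit with these numbers as a block gave an adjusted p of 0.00639, beside 0.311% of all genes. The 3KD sparing Nr1h3 held 0 and 1.44 FPKM (-5.94 ± 0.682, limma adjusted p = 0.0278), beside 0.00941%, and 0.00572 with the block, beside 0.169%. These groups did not overlap NC. In that direction, neither did 12.5% of all genes in the 3KD sparing Rarg and 12.2% in that sparing Nr1h3. The 3KD sparing Nr2c2 held 8.97 and 1.83 FPKM and was not called (-4.18 ± 0.682, limma adjusted p = 0.0984) except with the block (0.0188), beside 0.32% of all genes called lower with the block. The 3KD sparing Nr5a2 exceeded the other 3KD groups by 4.92 ± 0.557 (limma adjusted p = 0.0115), beside 0.254% of all genes called higher, and with the block the adjusted p was 0.00155, beside 1.7%.

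Without the block, the Psme1 calls in the triple knockdowns rested on every library. Against NC, the limma adjusted p of the groups sparing Rarg and Nr1h3 rose to between 0.124 and 0.580 when either NC library or either library of the group was left out. Against the other 3KD groups, that of the group sparing Nr5a2 rose to 0.166 and 0.137 without its own library 1 or 2, and to between 0.0519 and 0.0802 without any 1 library of the other groups. With a pseudocount of 0.1 the adjusted p for sparing Rarg, sparing Nr1h3 and sparing Nr5a2 against the others were 0.173, 0.0726 and 0.0506, and without the filter on low values 0.175, 0.135 and 0.0538.

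In the quadruple knockdown the difference in Psme1 was large and not called. At 8C the NC pools held 101 and 79.2 FPKM and the 4KD pools 3.09 and 2.42 FPKM (log2 fold change -4.59 ± 0.704, limma p = 9.48e-05, adjusted p = 0.256). At 4C the NC pools held 81.4 and 88 FPKM and the 4KD pools 3.45 and 24.9 FPKM (-3.00 ± 0.704, limma p = 0.00199, adjusted p = 0.673). Neither pair of groups overlapped, as was the case, in that direction, for 19.2% of all genes at 8C and 15.3% at 4C. The difference between the effects at 8C and 4C was -1.60 ± 0.996 (limma adjusted p = 1).

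At 2C the NC pools, which belong to a separate experiment, held less Psme1 than those of 4C and 8C. The NC pools held 13.9 and 16.1 FPKM and the Nr5a2 KD pools 4.29 and 2.12 FPKM (log2 fold change -1.98 ± 0.471, limma p = 0.00404, adjusted p = 0.890). The groups did not overlap, which held for 8.28% of all genes in that direction, and 0.0167% of all genes were called.

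Over all 24 siRNA libraries at 8C, Psme1 ran from 0 over a median of 1.79 to 8.97 FPKM in the 10 with Nr5a2 siRNA and from 66.1 over a median of 85.4 to 140 FPKM in the 14 without it. Of 11290 genes, 0.895% lay wholly lower and 0.23% wholly higher in the libraries with Nr5a2 siRNA. Of the 101 genes that lay wholly lower, Psme1 had the widest gap, 2.75 on the log2 scale, and no other member lay wholly apart in either direction.

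**Figure D2:**
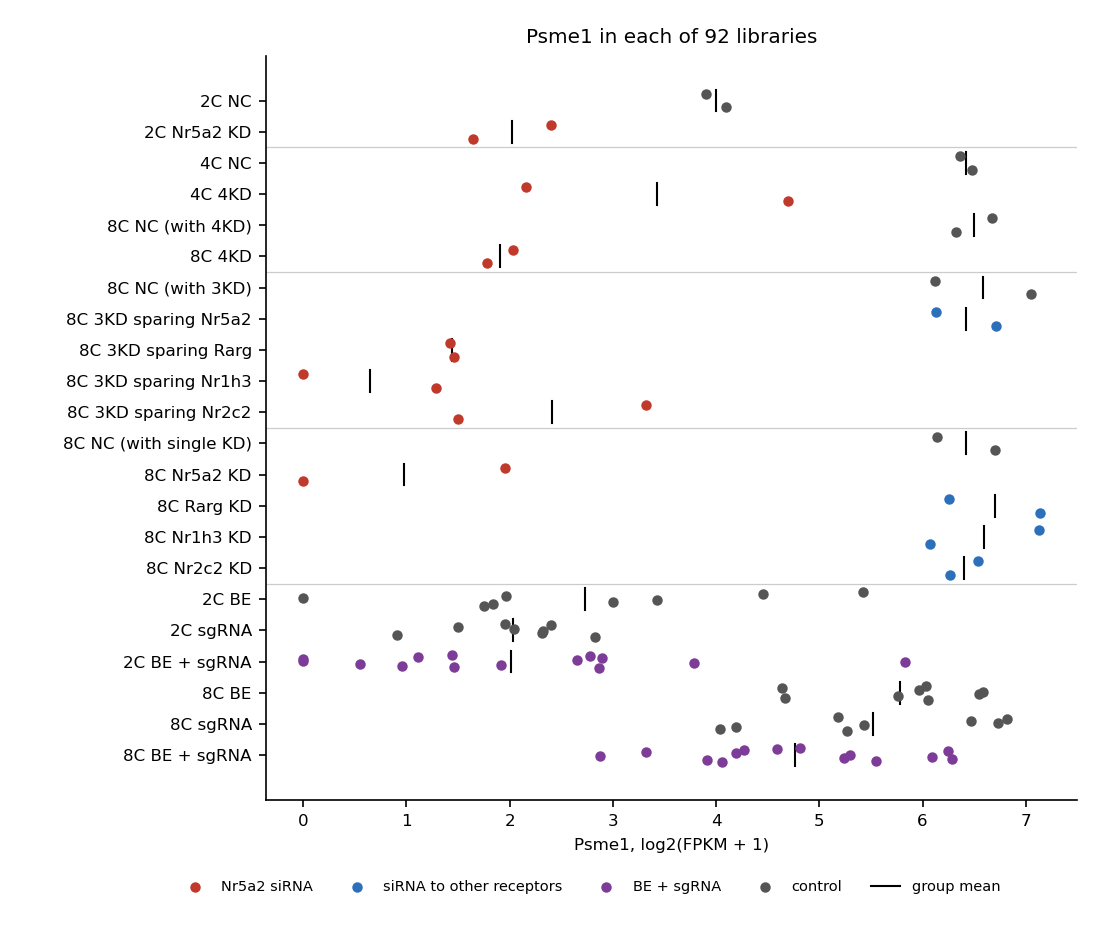
Psme1 in each of the 92 libraries as log2(FPKM + 1), with 1 row per group, grey lines between experiments and a bar at the mean of each group. The 10 libraries at 8C with Nr5a2 siRNA (red) lie at or below 8.97 FPKM and the 14 other siRNA libraries at 8C at or above 66.1 FPKM, while BE + sgRNA embryos (purple) overlap their controls at both stages.

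In single embryos edited at Nr5a2 there was no such gap. At 8C Psme1 ran from 6.34 over a median of 25.1 to 76.9 FPKM in BE + sgRNA embryos and from 15.4 over a median of 57.5 to 112 FPKM in controls, so that the groups overlapped (log2 fold change -0.88 ± 0.351, limma p = 0.0168, adjusted p = 0.342). Within libraries marked eBE the log2 fold change was -1.46 (limma adjusted p = 0.115) and within those marked BE4 it was -0.32 (0.999). At 2C the means were 7.23 and 7.15 FPKM in edited and control embryos (-0.37 ± 0.487, limma adjusted p = 0.793), with 2 of 14 and 1 of 16 embryos at 0. Nr5a2 itself had means of 52.1 and 46.2 FPKM in edited and control embryos at 8C, but the edit changes its sequence, so its FPKM does not report the edit.

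The end of Psme1 overlaps the convergent gene Emc9, annotated as Fam158a at chr14:56200353-56204139 on the minus strand (mm9). In this annotation the shared stretch is short, from 56200353 to 56200366, and without strand its reads cannot be told apart. Emc9 had 8.12 and 6.73 FPKM in NC and 0.637 and 0 FPKM in Nr5a2 KD at 8C (log2 fold change -2.71 ± 0.417, limma adjusted p = 0.00661). At 2C it had 8.14 and 9.49 FPKM in NC and 9.76 and 12 FPKM in Nr5a2 KD, where Psme1 was lower in both KD pools. Psme2, the partner of Psme1, lies beyond Emc9 at chr14:56206278-56209950 on the minus strand (mm9) and ran from 0 to 2.18 FPKM with and from 0 to 4.40 FPKM without Nr5a2 siRNA at 8C, so that these libraries overlapped.

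The targeted gene and other markers moved beside Psme1. Nr5a2 fell from 50.2 and 48.8 FPKM in NC to 9.65 and 12.8 FPKM in Nr5a2 KD at 8C (limma adjusted p = 0.0115). In the 8C siRNA libraries the 10 markers of the 8-cell stage and later summed to a median of 183 FPKM with Nr5a2 siRNA (107 to 251) and 379 without (139 to 623), and the 10 oocyte-deposited genes to 107 (53.0 to 193) and 49.8 (32.6 to 74.0). The 9 markers of the 2-cell stage summed to 31.4 (6.99 to 99.5) and 14.2 (3.36 to 437) FPKM. The 7 blood genes summed to 99.6 (28.1 to 210) and 17.7 (8.42 to 25.3) FPKM, with 2 genes at 0 throughout, and the 10 cumulus genes to 7.02 (3.30 to 20.3) and 12.3 (4.48 to 33.4), with 5 and 7 genes at 0. These sums came from few genes. Per group, 1 blood gene reached a mean of 1 FPKM, apart from 2 in the 3KD sparing Rarg and 3 in that sparing Nr2c2. Of the cumulus genes, 1 reached it in each group. The part of all these markers in the level of Psme1 was not tested.

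Antigen-processing genes, among which PA28 and the immunoproteasome are usually counted, did not share the pattern of Psme1. Their summed FPKM had a median of 157 (132 to 251) with and 98.1 (54.0 to 178) without Nr5a2 siRNA at 8C. Psmb8 ran from 0 over a median of 1.90 to 5.32 FPKM in the 10 libraries with Nr5a2 siRNA and from 0 to 0.272 FPKM in the 14 without, where the median was 0. Among the libraries with Nr5a2 siRNA, Psmb8 was at 0 in both pools of the 3KD sparing Nr1h3. It was not called in any knockdown comparison, with 0 FPKM in both NC pools, 5.32 and 0.502 FPKM in Nr5a2 KD, and a limma adjusted p of 0.0723 for Nr5a2 KD against the other single knockdowns. Psmb9 ran from 0 to 2.80 FPKM with and from 0 to 4.20 without Nr5a2 siRNA, and Psmb10 from 2.35 to 7.41 and from 1.51 to 10.5 FPKM.

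**Figure D3:**
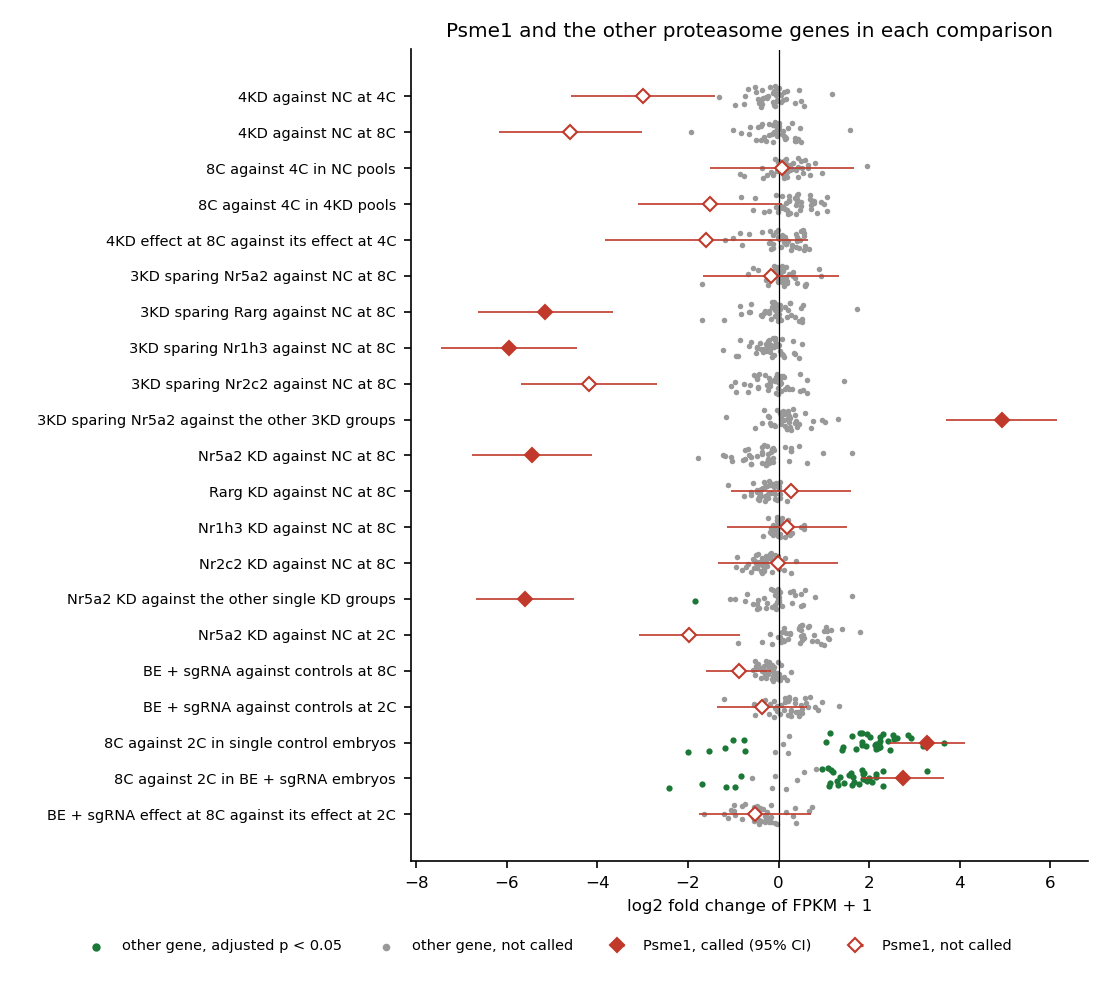
Log2 fold change of FPKM + 1 for Psme1 (diamonds, filled where called, with the 95% interval) and for each other member tested (points, green where called) in the 21 comparisons. Psme1 lies apart from the other members in the 8C comparisons with Nr5a2 siRNA, and the other members are called in the stage comparisons of single embryos and, for Psmd10, in Nr5a2 KD against the other single knockdowns.

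In Nr5a2 KD at 8C, 33 of the 42 members tested besides Psme1 were lower than in NC and 9 higher. Their median log2 fold change was -0.27, beside -0.22 for all genes, and 0.02 after median-ratio scaling, which moved the median of all genes by 0.23. It was -0.54 without Nr5a2 KD library 1 and 0.04 without library 2. The ATPase genes were lower in 6 of 6 cases (median -0.54) and the lid genes in 7 of 8 (median -0.25). The smallest unadjusted p belonged to Psmd10 (16.2 and 13 FPKM in NC, 4.40 and 2.81 in KD, limma p = 0.00274, adjusted p = 0.0711), Psmc4 (240 and 213 in NC, 118 and 83.6 in KD, p = 0.00487, adjusted p = 0.0927) and Psmc3ip (45.8 and 28.5 in NC, 14.5 and 15.2 in KD, p = 0.00894, adjusted p = 0.127). None was called. Their groups did not overlap, nor did those of 33.1% of all genes in that direction.

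Psmd10, which encodes the cap assembly chaperone gankyrin, was the one member besides Psme1 called in a knockdown comparison. Against the mean of the other single knockdowns it was lower in Nr5a2 KD, at 3.60 and 16.5 FPKM (log2 fold change -1.85 ± 0.382, limma adjusted p = 0.0216). In that comparison 1 of the 42 members tested besides Psme1 was called lower, beside 3.16% of all genes. The other single knockdowns held 10.6 and 20.5 FPKM (Rarg), 25.4 and 18.9 FPKM (Nr1h3) and 16.2 and 7.50 FPKM (Nr2c2). The adjusted p rose to between 0.0550 and 0.124 when Nr5a2 KD library 1 or 2, Rarg KD library 2, Nr1h3 KD library 1 or 2, or Nr2c2 KD library 1 was left out, and to 0.0685 without the filter on low values. Over all 8C siRNA libraries Psmd10 overlapped, from 2.81 to 30.5 FPKM with Nr5a2 siRNA and from 7.50 to 53.3 FPKM without.

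Psmc4, an ATPase of the base, was among the members with the smallest p in several comparisons without being called. It held 214 and 208 FPKM in NC and 64.9 and 109 FPKM in 4KD pools at 4C (log2 fold change -1.32 ± 0.369, limma p = 0.00578, adjusted p = 0.782). At 8C it held 348 and 260 FPKM in NC and 183 and 154 FPKM in 4KD pools (-0.83 ± 0.369, limma p = 0.0493, adjusted p = 0.661). In the 3KD sparing Nr5a2 it held 281 and 385 FPKM, beside a mean of 172 FPKM in the other 3KD groups (0.95 ± 0.383, limma adjusted p = 0.430). Over all 8C siRNA libraries Psmc4 ran from 83.6 over a median of 159 to 213 FPKM with Nr5a2 siRNA and from 147 over a median of 238 to 415 FPKM without, so the libraries overlapped. In 8C BE + sgRNA embryos it had a mean of 120 ± 56.4 FPKM (SD, n = 14) beside 172 ± 70.3 in controls (SD, n = 16, limma adjusted p = 0.483).

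Knockdown of the other receptors gave 0 calls among the members in limma, beside 0.00984% to 0.0787% of all genes. Over these knockdowns 1 member had an unadjusted p under 0.05, beside 2.92% to 4.19% of all genes per knockdown. In Rarg KD 36 of 42 members besides Psme1 were lower and 5 higher (median -0.31, all genes -0.08), in Nr1h3 KD 21 lower and 20 higher (median 0.00), and in Nr2c2 KD 36 lower and 5 higher (median -0.33, all genes -0.24). With a library left out these medians lay between -0.49 and -0.10, between -0.16 and 0.17, and between -0.49 and -0.19. Median-ratio scaling moved the median of all genes by 0.08 in Rarg KD and 0.24 in Nr2c2 KD and brought the medians of the members there to -0.18 and -0.02. The smallest unadjusted p in Rarg KD belonged to Psmb10 (2.57 and 6.84 FPKM in KD and NC, limma p = 0.0660), Psmc5 (231 and 356, p = 0.0873) and Psmd14 (161 and 245, p = 0.0874). In Nr1h3 KD they belonged to Psmc3ip (51.4 and 37.1, limma p = 0.234), Psmd10 (22.1 and 14.6, p = 0.255) and Psmb9 (0.983 and 0.368, p = 0.348). In Nr2c2 KD they belonged to Psmd14, the deubiquitinase of the lid (148 and 245, limma p = 0.0491), Psmb6 (317 and 472, p = 0.0659) and Psmc5 (223 and 356, p = 0.0678).

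In 4KD pools 32 of 44 members besides Psme1 were lower than NC and 11 higher at 4C (median -0.09), and 26 lower and 18 higher at 8C (median -0.04), beside medians of 0.00 for all genes. Besides Psmc4, the smallest unadjusted p at 4C were those of Psma7 (445 and 707 FPKM in 4KD and NC, limma p = 0.0876) and Psmd8 (144 and 242, p = 0.103). At 8C they were those of Psmc3ip (9.03 and 32.2, limma p = 0.0514) and Psmb8 (2.14 and 0, p = 0.0535). In the 3KD groups sparing Nr5a2, Rarg, Nr1h3 and Nr2c2, the members had medians of 0.07, -0.05, -0.17 and -0.05, beside medians of all genes between 0.11 and 0.13. After median-ratio scaling they were -0.12, -0.16, -0.31 and -0.19, with the median of all genes moved by -0.13, -0.08, -0.11 and -0.11. The NC libraries of this set stood apart, and the medians lay between -0.63 and -0.37 without NC library 1. Without NC library 2 they were 0.57, 0.46 and 0.30 in the groups sparing Nr5a2, Rarg and Nr1h3.

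Psme2 had 3.20 FPKM in NC of the triple knockdowns, 0.280 in the 3KD sparing Nr5a2 (limma p = 0.00977) and 0.284 in that sparing Rarg (limma p = 0.00990), neither called. Psme2 was thus lower than this NC in a group where Psme1 was high. Over all siRNA libraries of that stage, its median was 0.536 FPKM in the 14 without Nr5a2 siRNA (0 to 4.40). In the 10 with it the median was 0.786 FPKM. The 0.280 FPKM therefore lay within the range without Nr5a2 siRNA. Psme2 values are also uncertain, since reads may have been split with its near copy, so no contrast with Psme1 is drawn from them. Psmb8 had 0.136 FPKM in NC, 2.77 in the 3KD sparing Rarg (limma p = 0.00273, adjusted p = 0.319) and 2.15 in that sparing Nr2c2 (limma p = 0.00897, adjusted p = 0.415).

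At 2C, 37 of 42 members besides Psme1, with all 31 structural subunits among them, were higher in Nr5a2 KD than in NC pools. Limma called 0 of the 42, beside 0.0167% of all genes. Their median log2 fold change was 0.51, beside 0.23 for all genes, and 0.26 after median-ratio scaling, which moved the median of all genes by -0.21. Without NC library 2 it was 0.22. Of the 42 members, 21 lay wholly above NC, beside 27.3% of all genes. The smallest unadjusted p belonged to Psmb9 (0 and 0.789 FPKM in NC, 4.58 and 2.81 in KD, limma p = 0.0138), Psmd14 (means of 73.7 and 159 FPKM, p = 0.0182) and the beta ring gene Psmb3 (17.7 and 40.8 FPKM, p = 0.0287), each with an adjusted p of 0.890. Of the standard peptidases, Psmb5 held 58.1 and 92.1 FPKM in NC and 127 and 189 FPKM in KD, and Psmb6 held 46.8 and 72.6 FPKM in NC and 96.3 and 145 FPKM in KD. Psmb7 overlapped, at 151 and 81.2 FPKM in NC and 110 and 122 FPKM in KD.

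Base editing of Nr5a2 moved no member past the threshold in limma. Besides Psme1, 0 members at 8C and 2 at 2C had an unadjusted p under 0.05, beside 10.8% and 11.6% of all genes. At 8C 35 of 41 members besides Psme1 were lower in BE + sgRNA embryos and 6 higher (median log2 fold change -0.20, all genes 0.01), beside 0.164% of all genes called. The median was 0.00 without the embryo of the lowest FPKM sum and 0.12 with the sgRNA embryos alone as controls. It was -0.32 without the 8C embryos nearer the other stage by their 2-cell markers. The direction depended on the kind of control. The structural subunits summed to a median of 7288 FPKM in edited embryos at 8C, below the 8827 with BE alone and above the 6096 with sgRNA alone. The smallest unadjusted p belonged to the ATPase genes Psmc3 (70.8 and 102 FPKM in edited and control embryos, limma p = 0.0534) and Psmc4 (p = 0.0571) and to Psmd2 (45.9 and 70.0 FPKM, p = 0.0810).

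The share of all 46 genes differed between the marks at 8C. It was 1.94% ± 0.108 (SD, n = 6) in edited and 2.08% ± 0.147 (SD, n = 8) in control embryos of libraries marked eBE, and 1.36% ± 0.220 (SD, n = 6) and 1.58% ± 0.330 (SD, n = 8) in those marked BE4. Among these BE4 controls the share was 1.60% to 2.06% in BE embryos and 1.14% to 1.49% in sgRNA embryos. The sgRNA libraries there were placed by their numbers only, and their FPKM summed to between 207918 and 268257. At 2C the share of all 46 genes was 0.778% and 0.696% in edited and control embryos marked eBE and 0.736% and 0.671% in those marked BE4. The BE4 controls at 2C held BE embryos only, so mark and kind of control cannot be told apart. The median log2 fold change of the members between edited and control embryos at 8C was -0.12 within the libraries marked eBE and -0.41 within those marked BE4.

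At 2C 13 of 43 members besides Psme1 were lower in edited embryos and 30 higher (median 0.22, all genes 0.07), beside 0.00805% of all genes called. After median-ratio scaling, which moved the median of all genes by -0.14, the median was 0.10, and without the 2C embryos nearer the other stage by their 2-cell markers it was 0.34. Psma7 ran from 10.8 over a median of 27.3 to 125 FPKM in edited and from 9.11 over a median of 95.7 to 180 FPKM in control embryos (log2 fold change -1.20 ± 0.370, limma p = 0.00259, adjusted p = 0.216). Psmc3ip followed with means of 45.2 and 22.3 FPKM (limma p = 0.0208), and Psma2 with 155 and 110 FPKM (limma p = 0.0624).

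**Figure D4:**
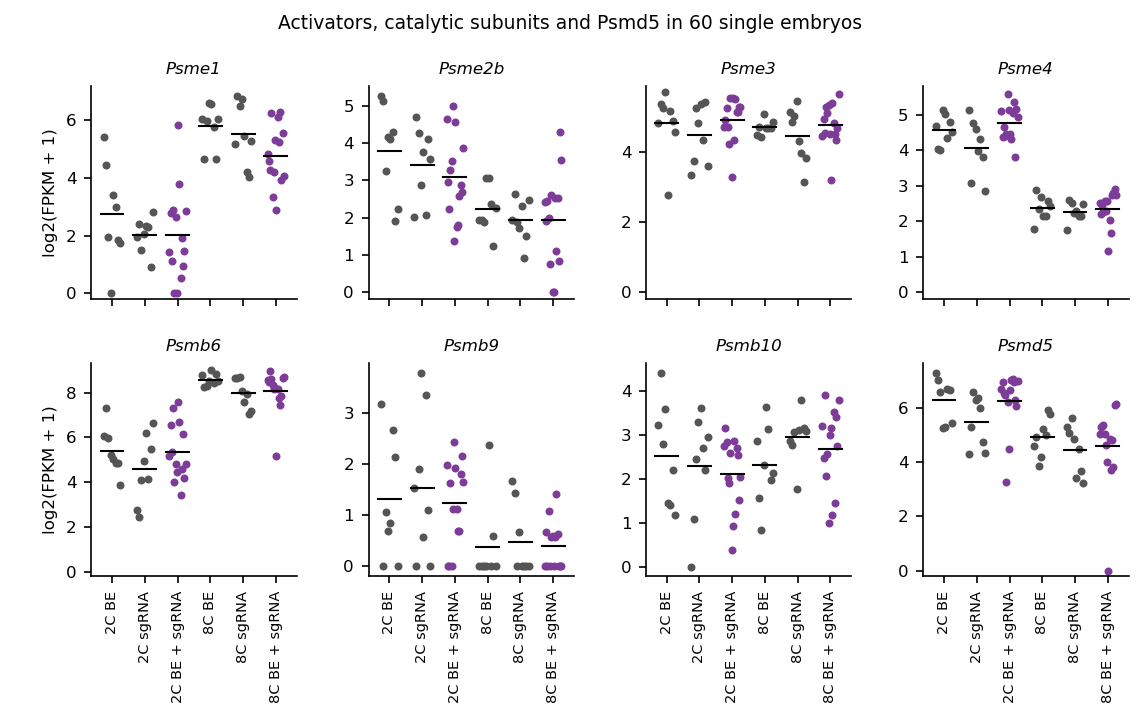
Levels of 8 members in the 60 single embryos as log2(FPKM + 1), with 1 point per embryo and a line at the mean of each group, controls in grey and BE + sgRNA embryos in purple. Psme1 and Psmb6 lie higher and Psme4, Psme2b and Psmd5 lower at 8C, and edited embryos overlap the controls of their stage in each panel.

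The other pathway genes gave no calls either in the 15 knockdown and editing comparisons. Over all genes, 0% to 3.95% were called per comparison there, and 2.36% to 19.5% had an unadjusted p under 0.05. Of 165 tests of further proteasome factors limma called 0, with 8 at an unadjusted p under 0.05, of 239 tests of ubiquitin genes 0, with 14, of 90 tests of proteasome regulators 0, with 8, and of 94 tests of antigen-processing genes 0, with 8. In Nr5a2 KD at 8C the further proteasome factors had a median log2 fold change of -0.48, with 8 of 11 lower, the ubiquitin genes -0.28, with 10 of 16 lower, and the regulators -0.51, with 4 of 6 lower, beside -0.22 for all genes.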

How the data were processed

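Gene expression was deposited as FPKM per gene and library, which the authors made with TopHat and Cufflinks on mm9 with refFlat genes. No read counts were used here. The submitters' processing notes also name CASAVA 1.8 and Bowtie2 2.2.2. Groups came from the sample labels. Genes that reached a mean FPKM of 1 in any group were tested with limma 3.58.1 (R 4.3.3) on log2(FPKM + 1) with an intensity trend, all groups of an experiment in one fit. The authors of the study used edgeR, which needs counts and was not used here. The scripts were tested on simulated data with 200 changed genes. At a log2 change of 1, limma recovered 0 in each pool comparison simulated, and 91 at 8C and 47 at 2C in edited embryos against controls. At a change of 3 it recovered 0 in Nr5a2 KD against NC at 2C and 141 to 183 in the other pool comparisons simulated. A lack of calls in the pools therefore does not show a lack of change. Members and lists were chosen with earlier results of these data known. Values by library were given for Psme1, for standard and inducible peptidases, for the members of highest and lowest mean, and per comparison for up to 8 called members with the largest change or else the 3 with the smallest p. Alternatives were another pseudocount, other filters, median-ratio scaling, no trend, single control groups, library marks and left-out libraries. On mm9, 43 members had 1 locus, and 18 overlapped another gene, which makes their FPKM uncertain. Deviations of same-numbered libraries from their group means correlated at 0.278 to 0.513 in all 10 group pairs of the 3KD set, where the numbers were therefore taken as pairs, although no label states a shared batch. The 21 samples without FPKM were not used.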

Additional observations from a re-analysis of the deposited data

Results flagged for a closer look

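In groups of 8 single embryos, 70 pairs of a gene and a group were checked over 18 genes for an embryo far from the others, and 4 were found. The limit used flags about 1 in 20 by chance where values are normally distributed. The 4 found were in genes at or near 0 in most embryos, where that rate does not hold. Psma8 reached 1.33 FPKM in the 2C sgRNA embryo 7, where the next embryo had 0.183, and 1.47 FPKM in the 8C sgRNA embryo 6, where the others were at 0. Psmb9 reached 4.17 FPKM in the 8C BE embryo 5, where the next had 0.506. Psmb8 reached 0.389 FPKM in the 8C sgRNA embryo 1, where the others were at 0.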

How the results depend on the processing

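Of the counts of called members under the alternatives, 494 stayed within 1.5 times the reported count and 14 moved. Most reported counts were 0, and those that stayed at 0 are among the 494. Of the values of single genes, 1103 kept direction and call, 53 lost the call, 1 gained it and 10 changed sign. Of the medians over the members, 234 moved by less than the spread between libraries and 20 by more. In Nr5a2 KD against the other single knockdowns, the members called lower went from 1 to 0 without the filter on low values, those called higher went from 0 to 1 with median-ratio scaling, and both lay between 0 and 1 with a library left out. In Nr5a2 KD against NC at 8C, 1 member was called lower at a mean FPKM of at least 5, and 0 to 1 higher with a library left out. At a mean FPKM of at least 5, where fewer genes are tested, 3 members were called lower at 8C against 2C in controls and 3 in BE + sgRNA embryos, and 2 in the latter within the libraries marked eBE, an alternative chosen after seeing the data. Sign changes were those of Psme1 where it was not called. With a library left out, its log2 fold change ran from -0.10 to 0.25 for 8C against 4C in NC pools, from -0.63 to 0.29 in the 3KD sparing Nr5a2, from -0.16 to 0.72 in Rarg KD, from -0.35 to 0.70 in Nr1h3 KD and from -0.30 to 0.26 in Nr2c2 KD, and with median-ratio scaling it was 0.29 in Nr2c2 KD. The cause was not tested. The share of calls that were higher over all genes moved with median-ratio scaling from 12.9% to 30.3% in Nr5a2 KD against NC at 8C, from 20.0% to 37.8% against the other single knockdowns, and from 81.3% to 64% in BE + sgRNA embryos at 8C. Outside the 3KD set, samples share only a replicate number. In the 4KD set, deviations of same-numbered libraries correlated at 0.346 at 4C and 0.336 at 8C between NC and 4KD pools. Between the stages they correlated at -0.297 to -0.271. In the single KD set they correlated at -0.0403 to 0.141. With the replicate number as a block, Psme1 in the 3KD sparing Nr2c2 was called (log2 fold change -4.18, limma adjusted p = 0.0188), and no other call on a member changed. With numbers crossed between stages in the 4KD set, a pairing chosen after seeing the data, 0 members were called. FPKM keep no read counts, so the counting error is unknown.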
